A study of Homo sapiens with 16 samples.

Results

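Small RNA of extracellular vesicles (EVs) was compared between ultracentrifugation (UC) and the Qiagen exoRNeasy kit for 1 cell line, MDA-MB-231, which comes from a triple-negative breast cancer. The 4 libraries were chosen by their labels alone, 2 for UC and 2 for exoRNeasy, out of 16 in the series. The remaining libraries were EVs of the same line from an aqueous two-phase system (next-gen ATPS), EVs of the prostate cancer line PC3 obtained by the same 3 methods, and cells of both lines. All are labelled WT with no treatment, and the labels give breast as the tissue, epithelial as the cell type and 5% FBS in the growth medium. For the serum the methods text gives another value. Conditioned medium was serum-free when the EVs were collected. The ultracentrifuged libraries bear the tag VC, and reading it as UC rests on the sources naming no further EV method. UC pellets were mixed with TRIzol, whereas the kit held EVs on one column and purified their RNA on another, so EV isolation and RNA extraction changed together and cannot be told apart. Separate cultures are not mentioned for the libraries of a group, and the p-values cover only what separates those libraries, which can be technical. Values are shares of the reads of 1 RNA class, so fewer copies per vesicle and fewer vesicles that carry an RNA cannot be told apart.

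Mature miRNAs are cut from a hairpin, which yields a 5p and a 3p arm, of which one is usually retained on an Argonaute protein and finds its targets through its seed (bases 2 to 8). C/D box small nucleolar RNAs (snoRNAs) guide 2′-O-methylation and H/ACA box snoRNAs guide pseudouridylation of ribosomal RNA, most of them being released from introns of host genes, while a few such as U3 take part in cleaving the ribosomal precursor. Circular RNAs (circRNAs) arise by back-splicing and lack free ends. All of these classes have been found in EVs as well as in the protein and lipoprotein particles that can accompany EVs.

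The sequences on which the miRNA results turn are shown first, 5′ to 3′ as RefSeq gives them for GRCh38.p14, with the seed in capitals. Both arms of miR-27a and of miR-222 are given because 1 arm of miR-27a and both arms of miR-222 were called, those of miR-222 in opposite directions, and miR-221-3p because it has the seed of miR-222-3p.

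hsa-miR-27a-5p: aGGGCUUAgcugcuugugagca
hsa-miR-27a-3p: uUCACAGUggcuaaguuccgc
hsa-miR-222-5p: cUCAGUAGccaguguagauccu
hsa-miR-222-3p: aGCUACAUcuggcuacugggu
hsa-miR-221-3p: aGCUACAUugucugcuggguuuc
hsa-miR-663b: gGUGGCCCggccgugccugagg
hsa-miR-423-3p: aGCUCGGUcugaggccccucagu
hsa-miR-21-5p: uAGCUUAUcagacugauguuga
hsa-miR-30a-5p: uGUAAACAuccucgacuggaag
hsa-miR-182-5p: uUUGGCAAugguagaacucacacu

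The annotation places miR-27a-5p at chr19:13836487-13836508 and miR-27a-3p at chr19:13836447-13836467, both on the minus strand within MIR23AHG, the host transcript of the miR-23a, miR-27a and miR-24-2 cluster. Further sites on the minus strand are chrX:45747036-45747056 for miR-222-3p and chrX:45747073-45747094 for miR-222-5p, inside an intron of the long non-coding RNA MIR222HG. The 2 hairpins are shown whole because entries named after hairpins were counted beside the mature ones, and capitals mark the mature arms, 5p first. The 78-base hairpin of miR-27a spans chr19:13836440-13836517 and the 110-base hairpin of miR-222 spans chrX:45747015-45747124.

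hsa-mir-27a: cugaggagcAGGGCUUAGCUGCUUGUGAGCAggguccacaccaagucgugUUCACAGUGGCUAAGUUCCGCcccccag
hsa-mir-222: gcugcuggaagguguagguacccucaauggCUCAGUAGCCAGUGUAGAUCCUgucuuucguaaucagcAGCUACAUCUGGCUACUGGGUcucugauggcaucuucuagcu

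Depth differed between the methods. The miRNA reads recovered from the files numbered 24730 and 26726 in the UC libraries against 4886 and 1982 in the exoRNeasy libraries. One read was therefore worth 40.4 and 37.4 TPM with UC but 205 and 505 TPM with exoRNeasy. The snoRNA reads came to 400429 and 169221 with UC and 111985 and 43868 with exoRNeasy, while the read sums over circRNA entries lay between 207543553 and 265881619 in all 4. Of 8 miRNAs listed as present in MDA-MB-231, 5 had reads in all 4 libraries (miR-221-3p, miR-222-3p, miR-21-5p, miR-100-5p and miR-146a-5p). The others had few or a single read. With UC, miR-125b-5p had 9 and 7 reads, miR-29a-3p 4 and 2, and miR-29b-3p 0 and 1. With exoRNeasy they had 0 and 0, 0 and 1, and 0 and 0. Of 7 epithelial miRNAs (the miR-200 family, miR-205-5p and miR-203a-3p), 3 are in the table and 2 had a read, a single one each in UC replicate 2, so the defining epithelial markers were at or near 0 in libraries labelled epithelial.

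Species were counted as detected when they had at least 1 read. UC libraries held 337 and 357 miRNA entries against 237 and 167 with exoRNeasy, a mean of 347 ± 14.1 (SD, n = 2) against 202 ± 49.5 (SD, n = 2). The order reversed when every library was drawn down to 1982 reads, the depth of the shallowest library. At that depth UC held 123.8 ± 3.97 entries and exoRNeasy 162.9 ± 5.80 (SD, n = 2 each), with no overlap between the groups. Requiring 3 reads gave 180 ± 5.66 with UC and 76 ± 28.3 with exoRNeasy. An exact permutation test of 2 against 2 libraries cannot give a two-sided p under 0.333, so that test could not call any of these counts different. Over both libraries of a group, 451 miRNA entries were seen with UC and 287 with exoRNeasy, and the 205 shared entries were 45.5% of the first and 71.4% of the second but carried 98.4% and 98.0% of the TPM. The entries seen with 1 method alone carried the small remainder. The 10 most abundant entries took 74.27% and 74.56% of miRNA TPM with UC and 67.89% and 70.13% with exoRNeasy, an order that reversed among mature names alone (a difference of -4.393 percentage points, UC minus exoRNeasy).

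For snoRNAs 327 and 307 entries were detected with UC and 315 and 250 with exoRNeasy, and at 43868 reads per library the means were 271.9 ± 3.07 and 264 ± 19.8 (SD, n = 2 each). The ranges overlapped in both counts. The 308 shared snoRNA entries were 90.3% of those seen with UC and 96.6% of those seen with exoRNeasy. CircRNA entries numbered 74023 and 74908 with UC against 59261 and 38670 with exoRNeasy, and 70813 ± 916 against 46186 ± 10629 (SD, n = 2 each) at equal reads. In this class the UC libraries were above both exoRNeasy libraries in either count. The circRNA sums include entries that share reads, so they are not library depth and drawing to equal sums does not make depth equal.

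**Figure D1:**
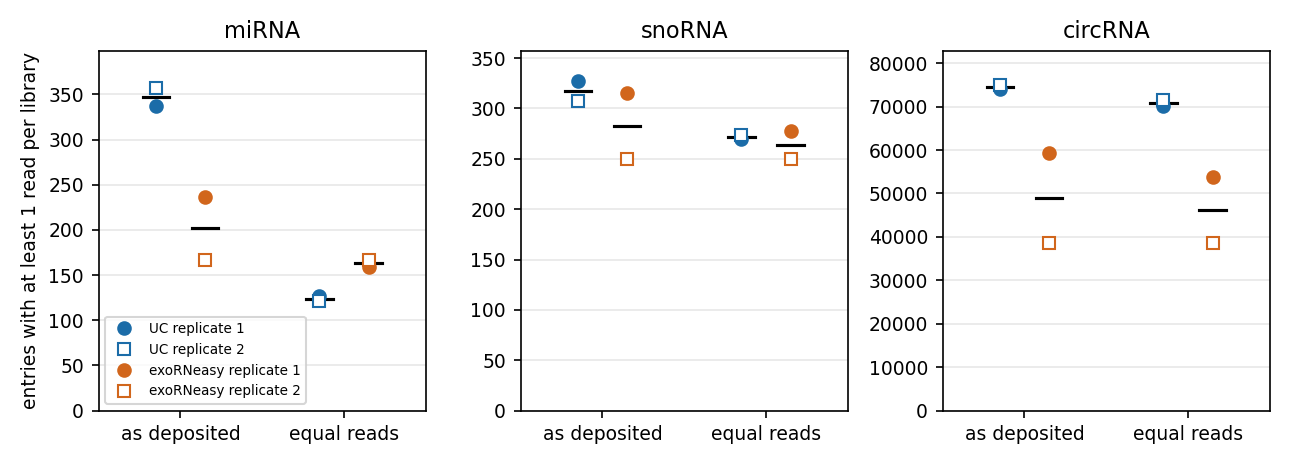
Number of entries with at least 1 read in each MDA-MB-231 EV library (y axis, starting at 0) for miRNA, snoRNA and circRNA, as deposited and at equal reads. Blue marks are UC and orange marks exoRNeasy, circles are replicate 1, open squares replicate 2 and black bars the means, and for miRNA the UC mean of 347 against 202 turns into 123.8 against 162.9 at equal reads.

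For miRNA levels, limma was run on log2(TPM + 252) in a fit over the 12 EV libraries, and every difference is UC minus exoRNeasy. Of 915 miRNA entries, 533 had a read in the 4 libraries and 83 passed the filter of a mean of 505 TPM, about 1 read in the shallowest library. Those 83 carried 96.4% of the miRNA TPM with UC and 94.6% with exoRNeasy. The filter favoured entries high with exoRNeasy, because 1 read weighed more TPM there. mir-561, for example, passed on 1 and 4 exoRNeasy reads with 0 reads in both UC libraries. The counts of calls in each direction carry this tilt. At an adjusted p under 0.05, 11 entries were higher with UC (13.3% of those tested) and 23 were higher with exoRNeasy (27.7%), which together were 41% of those tested, while 36 (43.4%) had an unadjusted p under 0.05. The 2 groups did not overlap in any of these 34, against 27 of 83 entries (32.5%) with UC above and 33 (39.8%) with exoRNeasy above among all tested. The median difference over the 83 entries was -0.16. Under other scalings of these entries it ran from -0.36 with DESeq2 size factors to 0.13 after quantile normalization. The split of the calls moved with it. It became 12 higher with UC and 14 lower after quantile normalization and 12 and 16 after centring. With edgeR it was 15 and 22, and with DESeq2 9 and 22. The balance reversed when TPM was taken over mature names alone, with 8 higher and 6 lower of 53 tested and a median of 0.49. With a filter 5 times higher, 7 of 38 entries were higher with UC and 11 with exoRNeasy. None of the 34 changed direction in the alternatives in which it was tested. miR-27a-5p, miR-663b, miR-425-5p and miR-222-3p remained called in all 16 alternatives, and mir-3190 and mir-19a in the 14 that tested them, the higher filter and the fit of mature names having left them out. Without UC replicate 2 only 12 entries were called, all of them among the 34.

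**Figure D2:**
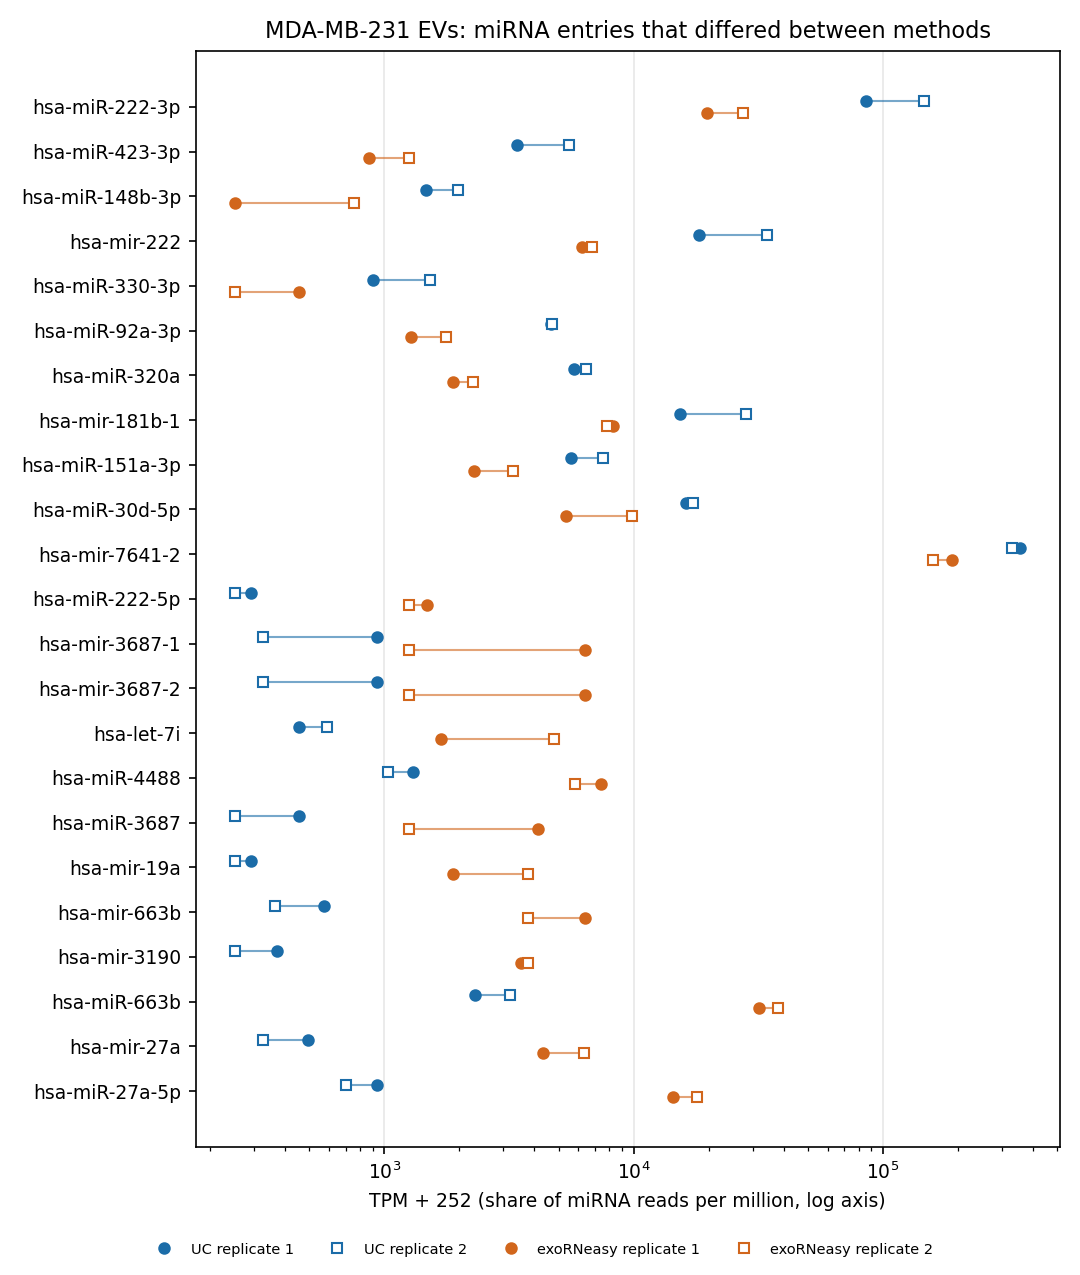
TPM + 252 on a log axis in the 4 MDA-MB-231 EV libraries for the 11 miRNA entries higher with UC (top) and the 12 with the largest differences among those higher with exoRNeasy (bottom). Blue is UC, orange is exoRNeasy, circles are replicate 1 and open squares replicate 2, and the blue and orange pairs do not overlap in any row.

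The 5p arm of miR-27a showed the largest difference of any miRNA entry tested. It stood at 687 and 449 TPM with UC and at 14122 and 17659 TPM with exoRNeasy, which rest on 17 and 12 reads and on 69 and 35 reads. Both exoRNeasy libraries were far above both UC libraries although they were several times shallower. Its log2 difference was -4.31 (SE 0.353, adjusted p = 1.4e-07), and the mean was 28.0-fold higher with exoRNeasy. The hairpin entry mir-27a went the same way, with 243 and 74.8 TPM against 4093 and 6054 TPM (-3.70, SE 0.660, adjusted p = 0.000471). The 3p arm did not follow. Its levels were 1820 and 2395 TPM with UC and 1228 and 504 TPM with exoRNeasy (1.15, SE 0.617, adjusted p = 0.18).

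The share of the 5p arm among the reads of both arms puts these values on a scale that does not depend on the rest of the library. For miR-27a it was 27.4% (17 of 62 reads, 95% Wilson interval 17.9 to 39.6) and 15.8% (12 of 76, 9.27 to 25.6) with UC. With exoRNeasy it was 92% (69 of 75, 83.6 to 96.3) and 97.2% (35 of 36, 85.8 to 99.5). The intervals, which cover counting error only, did not meet. PC3 EVs showed 28.0% and 32.9% with UC and 98.3% and 96.3% with exoRNeasy. Across the 8 hairpins with at least 10 reads of both arms together in each of the 4 libraries, the 5p share was lower in both UC libraries than in both exoRNeasy libraries for 5 and overlapped for 3, with 0 the other way. For miR-425 and miR-30a the gap was small, at 98.0% to 99.2% with UC and 99.2% to 100% with exoRNeasy. There the exoRNeasy libraries held 0 or 1 read of the 3p arm. The intervals of miR-425, miR-30a and miR-221 met between the methods, and those of miR-27a and miR-222 did not. In PC3 EVs the miR-221 shares overlapped, at 64.6% and 56.9% with UC and 27.8% and 71.4% with exoRNeasy.

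**Figure D3:**
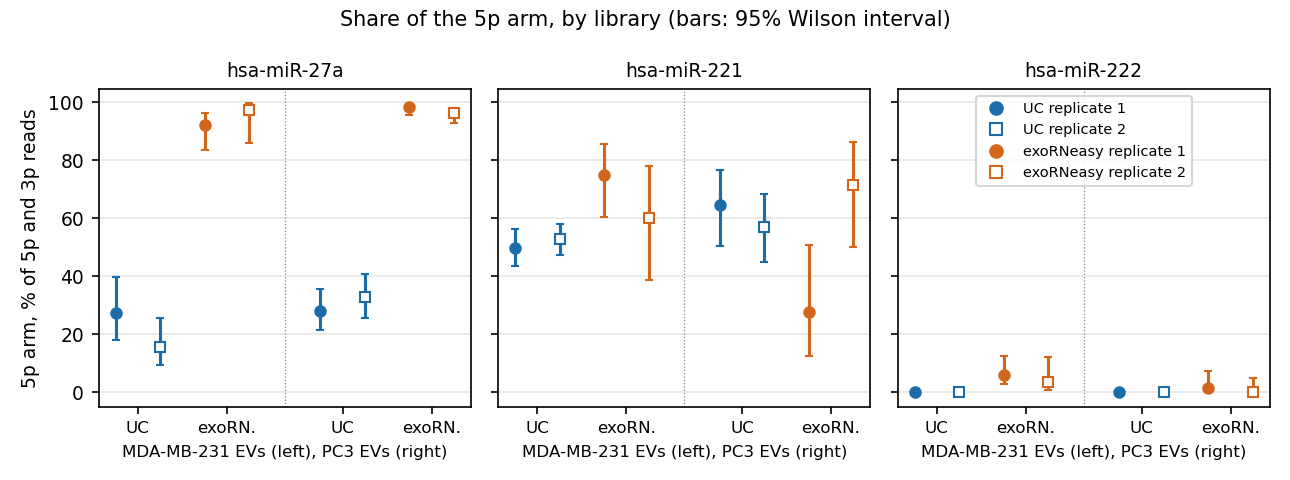
Share of the 5p arm (y axis, % of the reads of both arms) of miR-27a, miR-221 and miR-222 in each UC (blue) and exoRNeasy (orange) EV library, MDA-MB-231 left and PC3 right of the dotted line, with 95% Wilson intervals. Circles are replicate 1 and open squares replicate 2, and the miR-27a share lies at 15.8% to 32.9% with UC and at 92% to 98.3% with exoRNeasy in both lines.

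miR-222-3p was the abundant miRNA that differed most in the other direction. Together with miR-221-3p, whose seed it shares, it lowers the cell cycle inhibitor p27 and is high in triple-negative breast cancer lines. Its level was 84998 and 146337 TPM with UC (2102 and 3911 reads) and 19443 and 27245 TPM with exoRNeasy (95 and 54 reads). Each UC library was thus above each exoRNeasy library, the log2 difference was 2.26 (SE 0.369, adjusted p = 0.000282) and the mean 4.95-fold higher with UC. The hairpin entry mir-222 had 17994 and 34012 TPM with UC and 5935 and 6559 TPM with exoRNeasy (1.94, SE 0.435, adjusted p = 0.00294), a call that was lost without UC replicate 2 (1.49). The opposite arm, miR-222-5p, went the other way on few reads, 1 and 0 with UC and 6 and 2 with exoRNeasy (-2.33, adjusted p = 0.00319), and it was lost without UC replicate 2 (-2.22). A fitted difference on so few reads depends on the pseudocount and is no bound. As shares of both arms, miR-222-5p took 0.0476% and 0% of the reads with UC (1 of 2103 and 0 of 3911 reads) and 5.94% and 3.57% with exoRNeasy.

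The neighbouring miR-221 gave another pattern. Its hairpin entry, mir-221, stood at 3761 and 5201 TPM with UC and at 32337 and 16145 TPM with exoRNeasy, so that both exoRNeasy libraries were above both UC libraries (-2.31, SE 0.467, adjusted p = 0.00154). The mature arms were not called. miR-221-3p had 4650 and 5762 TPM against 2251 and 4036 TPM (0.73, adjusted p = 0.279), and miR-221-5p had 4610 and 6436 TPM against 6754 and 6054 TPM, which overlap (-0.22, adjusted p = 0.784). The 5p share of miR-221 was 49.8% and 52.8% with UC and 75.0% and 60.0% with exoRNeasy, where it rests on 44 and 20 reads.

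The following mature miRNAs were among those higher with exoRNeasy. miR-21-5p, which targets PDCD4, had 33239 and 20392 TPM with UC and 66517 and 58527 TPM with exoRNeasy (-1.25, SE 0.304, adjusted p = 0.00425). miR-30a-5p, which represses SNAI1 and BECN1, had 88354 and 42131 TPM against 144904 and 162967 TPM (-1.33, SE 0.384, adjusted p = 0.0143). The groups did not overlap in either miRNA, and the ratio of the means was 2.33 and 2.36. miR-425-5p, processed from the same transcript as miR-191, went from 19410 and 18222 TPM with UC to 51167 and 65086 TPM with exoRNeasy (-1.60, SE 0.266, adjusted p = 0.000282), a 3.09-fold difference in means. miR-182-5p, made from 1 transcript with miR-96 and miR-183, had 26971 and 35284 TPM against 49734 and 71645 TPM (-0.95, SE 0.302, adjusted p = 0.0268). Of these 4 only miR-425-5p kept its call whichever library was left out. miR-21-5p lost it without UC replicate 2 (-0.90), miR-30a-5p without UC replicate 2 (-0.80) or exoRNeasy replicate 2 (-1.24), and miR-182-5p without UC replicate 1 (-0.75) or exoRNeasy replicate 2 (-0.68). miR-182-5p was also not called after quantile normalization (-0.25), centring (-0.68) or with edgeR (-0.72), and miR-30a-5p not after centring (-1.06). The hairpin entry mir-21, which gathered more TPM than the mature arm, had 96644 and 100501 TPM with UC and 99877 and 76690 TPM with exoRNeasy, which overlap (0.17, adjusted p = 0.626).

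Further miRNAs were higher with UC at lower levels. miR-423-3p had 3154 and 5238 TPM with UC and 614 and 1009 TPM, that is 3 and 2 reads, with exoRNeasy (2.05, adjusted p = 0.00425). miR-92a-3p, a member of the miR-17~92 cluster that is carried largely by Argonaute 2 in plasma, had 4408 and 4453 TPM against 1023 and 1514 TPM (1.64, adjusted p = 0.0293). miR-320a, whose precursor is made without Drosha, had 5540 and 6211 TPM against 1637 and 2018 TPM (1.56, adjusted p = 0.0279). All of them were higher in both UC libraries, but the exoRNeasy values rest on 2 to 8 reads. miR-30d-5p had 15932 and 17062 TPM against 5117 and 9586 TPM (1.20, adjusted p = 0.0268), the opposite direction to miR-30a-5p of the same family. These calls depended on which libraries were fitted, while the differences stayed positive with any 1 library left out. The difference was 1.70 for miR-423-3p without UC replicate 2, where it was not called. miR-92a-3p was not called without UC replicate 1 (1.65), UC replicate 2 (1.64) or exoRNeasy replicate 1 (1.41), and miR-30d-5p without UC replicate 1 (1.25), UC replicate 2 (1.16) or exoRNeasy replicate 1 (0.77). Leaving out any of the 4 libraries ended the call of miR-320a (1.43 to 1.70). miR-151a-3p, miR-148b-3p, miR-330-3p and the hairpin mir-181b-1 made up the rest of the entries higher with UC, at differences of 1.24 to 1.96 and adjusted p of 0.0383 to 0.0441. Without UC replicate 2 they were at 1.03, 1.75, 1.40 and 0.94 and none was called, and each also lost its call without 2 of the other libraries.

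Entries that overlap ribosomal or other structural RNA held a large part of the reads in both groups. The 40 entries of that list in the table made up 38.4% and 35.4% of miRNA TPM with UC and 27.2% and 24.7% with exoRNeasy. Most of this was mir-7641-2, whose sequence resembles 5.8S ribosomal RNA, with 356005 and 329529 TPM against 189316 and 158426 TPM (0.98, SE 0.204, adjusted p = 0.00172, 1.97-fold). Other members went the other way. miR-663b, a GC-rich miRNA, had 2062 and 2956 TPM with UC and 31723 and 37841 TPM with exoRNeasy (-3.68, SE 0.421, adjusted p = 7.4e-06, 13.9-fold). Both exoRNeasy libraries were above both UC libraries for it and for its hairpin (324 and 112 TPM against 6140 and 3532 TPM, -3.42). miR-3687, which lies in the transcribed spacer of the ribosomal precursor, had 202 and 0 TPM against 3889 and 1009 TPM (-2.76, adjusted p = 0.00807), but its call was lost without UC replicate 2 (-2.33) or exoRNeasy replicate 1 (-1.90). Its hairpins mir-3687-1 and mir-3687-2 have identical values and are 1 measurement (-2.36). In all, 1 of the 10 tested entries of the list was higher with UC and 5 with exoRNeasy, at a median of -1.63, against 13.3% and 27.7% called and a median of -0.16 over all tested entries. Of the 5, 3 are miR-3687 entries, and 2 of these are 1 measurement. The other 2 are miR-663b and its own hairpin, so the 5 calls come from 2 miRNAs. The median stayed between -2.44 and -1.05 under the other scalings. The counts were 0 and 3 after quantile normalization, where mir-7641-2 was not called (0.96).

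Several hairpin entries were higher with exoRNeasy. mir-3190 had 3 and 0 reads with UC and 16 and 7 with exoRNeasy (121 and 0 against 3275 and 3532 TPM, -3.57, SE 0.571, adjusted p = 0.000251). mir-19a, from the miR-17~92 cluster, had 1 and 0 reads against 8 and 7 (40.4 and 0 against 1637 and 3532 TPM, -3.30, SE 0.529, adjusted p = 0.000251). Both exoRNeasy libraries were higher in reads as well as in TPM, although they were shallower. The hairpin hsa-let-7i stood at 202 and 337 TPM against 1433 and 4541 TPM (-2.46, adjusted p = 0.00416), and it was not called without exoRNeasy replicate 2 (-1.70). For mir-561 the UC libraries had 0 reads and the exoRNeasy libraries 1 and 4, and no fold is given. The remaining entries higher with exoRNeasy were miR-4488 (1051 and 786 against 7163 and 5550 TPM, -2.50), miR-138-5p, miR-186-5p and the hairpins mir-3652, mir-148a and mir-30a, at -2.07 to -1.41. Without UC replicate 2 none of these 6 was called, and their differences ran from -2.33 to -1.09. mir-148a fell to -0.66 without exoRNeasy replicate 2. Of the 23 entries higher with exoRNeasy, 12 (52.2%) were named after hairpins, as were 3 of the 11 higher with UC (27.3%) and 30 of the 83 tested (36.1%). Some of the 12, such as mir-561, passed the filter through their exoRNeasy reads alone, so these shares carry its tilt. By TPM the hairpin share went in the opposite direction. Hairpin-named entries took 55.43% and 55.42% of miRNA TPM with UC and 45.5% and 39.5% with exoRNeasy, most of it in mir-7641-2 and mir-21.

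The called entries were also looked up in the MDA-MB-231 cells. In cell replicate 1 the 11 entries higher with UC had a median of 8587 TPM and 0 were without a read, whereas the 23 entries higher with exoRNeasy had a median of 225 TPM and 9 were without a read. The median of all 83 was 1983 TPM, with 10 lacking a read. Some of the 23, such as mir-561, passed the filter through their exoRNeasy reads alone, so these cell values carry its tilt. The cell level was above the exoRNeasy mean for 9 of the 11 and for 0 of the 23, against 38 of 83. It was above the UC mean for 8 of the 11 and 7 of the 23, against 44 of 83. This compares EV values used for the calls with a library outside them. It is a description with no test, since the UC and exoRNeasy means enter both. Cell replicate 2 held only 153 miRNA reads and was not used here. The next-gen ATPS mean lay between the UC and exoRNeasy means for 9 of the 11, 17 of the 23 and 49 of all 83. Called entries were selected for a wide gap between the UC and exoRNeasy means, which by itself favours another mean lying between them. Whether next-gen ATPS is intermediate was therefore not tested by these counts. Median GC content of mature sequences was 54.5% for UC (5 sequences, 40.9% to 65.2%) and 52.3% for exoRNeasy (8 sequences, 36.4% to 88.9%). In 32 uncalled sequences the median was 46.5%. Of 53 mature entries tested, 45 had a sequence, among them 5 of the 8 higher with UC and 8 of the 11 higher with exoRNeasy.

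The miRNA families gave few calls. In the let-7 and miR-98 family 0 of 6 tested entries were called by limma, edgeR or DESeq2 and 0 at an unadjusted p under 0.05, with a median difference of -0.27. For miR-100 and its relatives miR-99 and miR-125, 2 entries were tested and 0 were called (0 at an unadjusted p under 0.05, 1 with edgeR and 0 with DESeq2). They were miR-100-5p, with 13385 and 14144 TPM against 6345 and 7568 TPM (0.96, adjusted p = 0.201), and miR-99b-3p (0.42). Of 3 tested entries of miR-17~92 and related clusters 1 was higher with UC, miR-92a-3p, which was also the only tested member of the 3 miRNAs listed as carried by Argonaute outside vesicles in plasma. In the list of miR-23a, miR-27a and miR-24 with their paralogues, 1 of 5 was higher with exoRNeasy, miR-27a-5p, while the median of the 5 was 0.98. The miR-30 and the miR-221 and miR-222 lists each had 1 of 4 in either direction, the miR-183 list 1 of 2 higher with exoRNeasy, and miR-320 its only tested entry, miR-320a, higher with UC. Over all tested entries 13.3% were higher with UC and 27.7% with exoRNeasy. The miR-183 list had 0 calls by limma after quantile normalization or centring and 0 with edgeR (1 at an unadjusted p under 0.05 in limma without rescaling, 1 with DESeq2), and the miR-30 list lost its call with exoRNeasy higher after centring. Entries of miR-200 and miR-205, miR-29 and the 14q32 cluster did not pass the filter, and neither did markers of blood, endothelial or liver cells, muscle markers or neuronal markers. Those 3 marker lists summed to at most 0.101%, 0% and 0.0504% of miRNA TPM in any of the 4 libraries.

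In snoRNAs the difference was tested on log2(TPM + 12) for 255 entries with a mean of at least 24.1 TPM, of 413 in the table and 352 with a read. With UC 40 entries were higher (15.7%) and with exoRNeasy 19 (7.45%), and the 2 groups did not overlap in any of the 59. Among all 255 entries, 95 (37.3%) had both UC libraries above and 53 (20.8%) both exoRNeasy libraries above. The median difference was 0.19. It fell to 0.01 after quantile normalization, -0.20 after centring, -0.05 with edgeR and -0.16 with DESeq2, and the calls then split into 36 higher and 38 lower, 26 and 39, 21 and 28, and 14 and 32. The larger count with UC therefore did not hold under another scaling. None of the 59 changed direction, and 5 remained called in every alternative run for them. These were SNORD17, SNORA58 and SNORA3A, higher with exoRNeasy, and SNORD88 and SNORA3, higher with UC. SNORA3 had 392 and 1253 TPM with UC and 80.4 and 45.6 TPM with exoRNeasy (3.29, SE 0.682, adjusted p = 0.00373). Without UC replicate 1 the count was 9 and without exoRNeasy replicate 2 it was 22, while fitting the 4 libraries alone gave 14.

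SNORD17 and SNORD95 are printed because they had the lowest adjusted p in each direction. Sequences come from GRCh38 at the GENCODE v44 coordinates, and capitals mark the C box (TGATGA) and the D box (CTGA) nearest the ends. SNORD17, at chr20:17962710-17962946 on the minus strand, lies in an intron of SNX5 and guides methylation of 28S ribosomal RNA. SNORD95, at chr5:181243312-181243379 on the minus strand, lies within RACK1, which encodes a ribosomal scaffold protein.

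SNORD17: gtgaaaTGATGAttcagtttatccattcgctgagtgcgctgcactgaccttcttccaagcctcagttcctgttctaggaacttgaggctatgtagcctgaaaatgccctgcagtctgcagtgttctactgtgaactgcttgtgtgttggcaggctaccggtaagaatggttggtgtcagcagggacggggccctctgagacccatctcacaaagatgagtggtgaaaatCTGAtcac
SNORD95: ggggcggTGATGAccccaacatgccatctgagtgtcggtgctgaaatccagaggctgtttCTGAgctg

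SNORD17 stood at 2238 and 1206 TPM with UC and at 9189 and 7089 TPM with exoRNeasy. Both exoRNeasy libraries were above both UC libraries, the log2 difference was -2.29 (SE 0.390, adjusted p = 0.00148) and the ratio of the means 4.73. SNORA58, an H/ACA box snoRNA in an intron of MRPL3, had 1296 and 603 TPM against 8331 and 5950 TPM (-2.98, SE 0.579, adjusted p = 0.0029). SNORA3A, within RPL27A, had 684 and 585 TPM against 4197 and 2052 TPM (-2.19, SE 0.485, adjusted p = 0.00664). Neither overlapped between the groups. The related SNORA3B, in an intron of the same gene and 70.6% identical to SNORA3A, was higher with UC, at 559 and 1489 TPM against 214 and 274 TPM (1.86, adjusted p = 0.0197). That call was lost without UC replicate 2 (1.17) or exoRNeasy replicate 1 (1.70). SNORA71B, in an intron of SNHG17, had 966 and 745 TPM against 4268 and 2713 TPM (-1.99, adjusted p = 0.0135), and it was not called without UC replicate 1 (-2.17), UC replicate 2 (-1.80) or exoRNeasy replicate 1 (-1.66).

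The U3 entries, which take part in the first cleavages of the ribosomal precursor, rested on 1 library. They made up 3.17% and 3.30% of snoRNA TPM with UC and 15.2% and 4.63% with exoRNeasy, so the groups did not overlap but exoRNeasy replicate 1 stood far above replicate 2. SNORD3A had 6171 and 7003 TPM against 26584 and 8822 TPM (-1.22, SE 0.410, adjusted p = 0.0381). Without exoRNeasy replicate 1 the difference was -0.42 and was not called, nor was it without UC replicate 1 (-1.13) or UC replicate 2 (-1.31). The entry named U3 had 3646 and 2919 TPM against 21824 and 5266 TPM (-1.71, adjusted p = 0.021) and fell to -0.69 without exoRNeasy replicate 1, losing its call there and without UC replicate 1 (-1.87) or UC replicate 2 (-1.55). SNORD3D was steadier, at 1468 and 1720 TPM against 6813 and 3716 TPM (-1.66, SE 0.393, adjusted p = 0.0107), with -1.54 and no call without UC replicate 1. The copies SNORD3B-1 and SNORD3B-2 can share reads and had nearly equal values. Of 19 tested entries in the list for cleavage of the ribosomal precursor, 6 were higher with exoRNeasy, 5 of them U3 copies and the other SNORD22, and 2 with UC (SNORD14A and SNORD14E), against 7.45% and 15.7% of all snoRNAs. The counts were 8 and 1 with edgeR and 8 and 0 with DESeq2.

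SNORD116 copies, from the imprinted Prader-Willi region on chromosome 15, were low throughout, at 0.181% and 0.539% of snoRNA TPM with UC and 0.646% and 0.887% with exoRNeasy. SNORD116-8, at chr15:25070432-25070526 in SNHG14, had 42.5 and 130 TPM against 241 and 296 TPM (-1.67, SE 0.506, adjusted p = 0.021). It was not called without UC replicate 1 (-0.98) or exoRNeasy replicate 2 (-1.53). SNORD116-14, SNORD116-15, SNORD116-17, SNORD116-19 and SNORD116-20 were also higher with exoRNeasy (-1.37 to -1.33, adjusted p of 0.0473 to 0.0495). Their values are nearly equal and their sequences 97.8% to 98.9% identical, so they are close to 1 measurement, and all lost their calls without UC replicate 1 (-0.70 to -0.65) or exoRNeasy replicate 2 (-0.99 to -0.95). Of the 20 tested SNORD115 and SNORD116 entries, 6 were higher with exoRNeasy and 0 with UC (0 at an unadjusted p under 0.05, by edgeR and by DESeq2). All 20 differences were negative under each of the 5 scalings, at a median of -1.05 against 0.19 over all snoRNAs. SNORD104, hosted by SNHG25, was also higher with exoRNeasy (2220 and 6104 against 6867 and 12173 TPM, -1.31, adjusted p = 0.021), and was not called without UC replicate 1 (-0.58) or exoRNeasy replicate 2 (-0.90). SNORD107, from the same region of chromosome 15, had 2 and 0 reads with UC and 6 and 3 with exoRNeasy (-2.34, adjusted p = 0.0262), and leaving out any of the 4 libraries ended that call (-2.59 to -2.09).

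SNORD95 had 11643 and 8728 TPM with UC and 3099 and 3214 TPM with exoRNeasy. Both UC libraries were well above both exoRNeasy libraries (1.67, SE 0.318, adjusted p = 0.0029, 3.23-fold), and leaving out any 1 library did not end the call. The other snoRNA of RACK1, SNORD96A, differed by 0.40 and was not called. SNORD88 had 117 and 76 reads with UC and 3 and 1 with exoRNeasy (292 and 449 against 26.8 and 22.8 TPM, 3.35, SE 0.689, adjusted p = 0.00373), and the relative SNORD88A had 594 and 892 TPM against 125 and 251 TPM (1.96, SE 0.472, adjusted p = 0.0109). SNORD62A and SNORD62B have the same sequence and the same values, 917 and 591 TPM against 232 and 160 TPM (1.87). Their call was lost without UC replicate 1 (1.56) or exoRNeasy replicate 2 (1.62). The other entries higher with UC ranged from 0.74 to 3.44, SNORA48 being the highest on 8.93 and 0 TPM with exoRNeasy.

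Among the most abundant snoRNAs, modest differences passed the test with UC higher. SNORD26, hosted by SNHG1, had 85828 and 62912 TPM against 40273 and 45865 TPM (0.77, SE 0.234, adjusted p = 0.021). SNORD69, in an intron of GNL3, had 43551 and 35646 TPM against 16538 and 22978 TPM (1.01, SE 0.246, adjusted p = 0.0109). SNORD6, in an intron of TAF1D, had 30502 and 20961 TPM against 13502 and 16937 TPM (0.74, SE 0.265, adjusted p = 0.0483). The groups did not overlap in any of them, and each lost its call with some libraries left out, SNORD26 and SNORD6 without UC replicate 1 (0.55 and 0.47), exoRNeasy replicate 1 (0.68 and 0.58) or exoRNeasy replicate 2 (0.87 and 0.90), and SNORD69 without UC replicate 1 (0.87) or exoRNeasy replicate 1 (0.78). All of them were also not called after centring or with DESeq2, at 0.35 to 0.72. The 2 largest entries were not called. SNORD2 had 258810 and 138198 TPM with UC and 218476 and 189158 TPM with exoRNeasy (-0.10, SE 0.244, adjusted p = 0.81), and SNORD49A had 107088 and 224759 TPM against 111917 and 177168 TPM (0.14, SE 0.275, adjusted p = 0.76). For both the UC libraries lay on either side of the exoRNeasy libraries, and SNORD49A changed sign, to -0.25 after centring, -0.03 with edgeR and -0.13 with DESeq2.

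**Figure D4:**
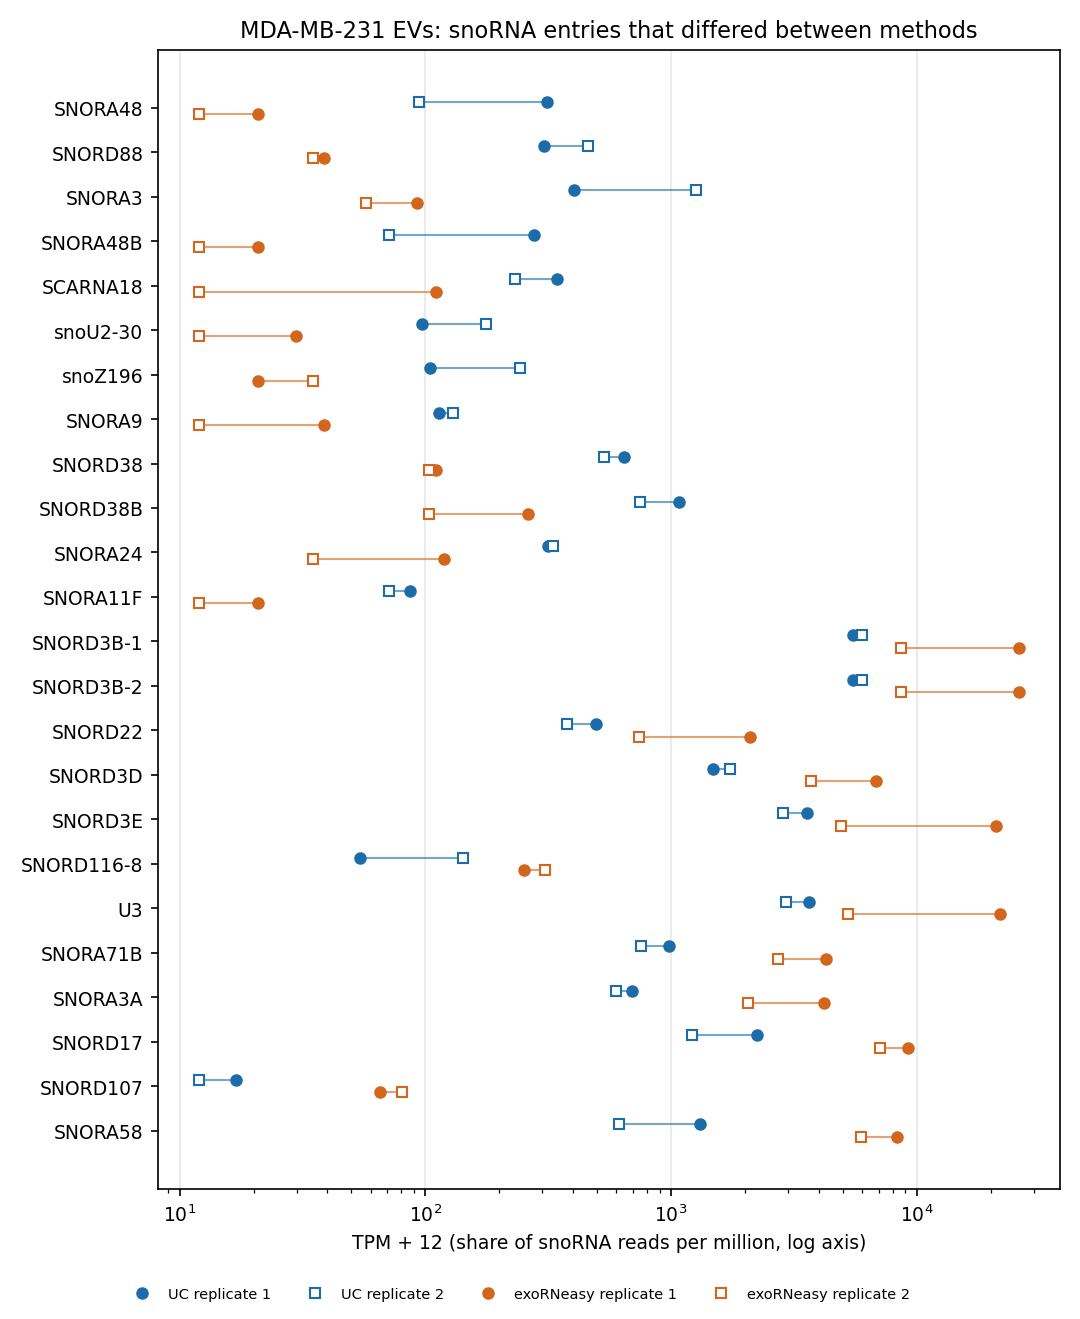
TPM + 12 on a log axis in the 4 MDA-MB-231 EV libraries for the 12 snoRNA entries with the largest differences in each direction, higher with UC at the top and higher with exoRNeasy at the bottom. Blue is UC, orange is exoRNeasy, circles are replicate 1 and open squares replicate 2, and the wide orange pairs of the U3 entries show exoRNeasy replicate 1 far above replicate 2.

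By class, 13 of 86 H/ACA box entries were higher with UC and 3 with exoRNeasy, at a median of 0.82, and 22 and 15 of 159 C/D box entries, at a median of -0.09, against 15.7% and 7.45% called and a median of 0.19 over all 255. The H/ACA median stayed positive under every scaling (0.23 to 0.82) but the counts became 12 and 5 after quantile normalization, 9 and 7 after centring, 6 and 4 with edgeR and 4 and 6 with DESeq2, so that their direction was not kept. For C/D box entries the counts were 21 and 31, 13 and 31, 13 and 23, and 10 and 25 under the same settings. The H/ACA entries together made up 4.31% and 4.73% of snoRNA TPM with UC and 6.07% and 3.62% with exoRNeasy, which overlap. Of 36 tested C/D box snoRNAs in ribosomal protein genes, 7 were higher with UC and 0 with exoRNeasy (9 and 2 at an unadjusted p under 0.05), against 15.7% and 7.45% of all snoRNAs. The balance was not kept, with 6 and 1 after quantile normalization, 3 and 3 after centring, 3 and 2 with edgeR and 2 and 2 with DESeq2, and the median of 0.26 changed sign after centring (-0.13) and with DESeq2 (-0.08). Of the 6 tested snoRNAs of SNHG1, SNORD26 was higher with UC and SNORD22 with exoRNeasy (482 and 366 TPM against 2081 and 729 TPM, -1.53, adjusted p = 0.0387, and -0.78 with no call without exoRNeasy replicate 1, -1.72 without UC replicate 1 and -1.33 without UC replicate 2). Of the 2 RACK1 entries 1 was higher with UC. Of 3 scaRNAs, which guide modification of spliceosomal RNA in Cajal bodies, 1 was called, SCARNA18, with 133 and 37 reads with UC and 11 and 0 with exoRNeasy (2.95, SE 0.778, adjusted p = 0.0135). Its call was lost without UC replicate 1 (2.66) or exoRNeasy replicate 2 (1.35), and with edgeR (1.91) and DESeq2 (1.85). Entries of SNORD113 and SNORD114 and of GAS5 did not pass the filter.

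The next-gen ATPS mean lay between the UC and exoRNeasy means for 34 of the 40 snoRNA entries higher with UC. It did so for 19 of the 19 higher with exoRNeasy and for 128 of all 255. As for miRNA, calling selects entries with a wide gap between the methods, which by itself favours the next-gen ATPS mean lying inside it. These counts therefore do not show next-gen ATPS to be intermediate. In cell replicate 1 the 19 entries higher with exoRNeasy had a median of 5.90 TPM, against 118 TPM for the 40 higher with UC and 64.9 TPM for all tested. The cell level was above the exoRNeasy mean for 15 of the 40 and 0 of the 19, against 78 of 255. It was above the UC mean for 0 of the 40 and 0 of the 19, against 54 of 255. This too is a description with no test.

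The PC3 EVs, prepared by the same methods and fitted together with these libraries, served to ask whether the differences were shared. Of the 34 miRNA entries called in MDA-MB-231 EVs, 28 had the same sign in PC3 EVs and 13 were also called there, where 9 entries were higher with UC (10.8%) and 13 with exoRNeasy (15.7%). Equal signs were not counted over all tested entries in any class, so the counts of equal signs have no share to stand beside them. miR-27a-5p differed by -4.54 in PC3, and the difference between the lines was 0.24 (SE 0.499, adjusted p = 0.83). mir-7641-2 differed by 1.33 and miR-425-5p by -0.92 in PC3, both called there. Across the 83 entries Spearman's rho between the lines' differences was 0.597, a description over entries that share libraries and depth. For snoRNAs 42 of 59 had the same sign and 15 were also called in PC3, where 32 were higher with UC (12.5%) and 10 with exoRNeasy (3.92%), and rho was 0.232 over 255 entries. The median snoRNA difference over all tested entries was positive in both lines (0.19 and 0.35 in PC3), which by itself favours equal signs. SNORD95 (1.34) and SNORA3A (-1.94) were called in both lines.

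The test of the difference between lines passed for 3 miRNA entries (3.61%) and 19 snoRNA entries (7.45%). mir-221 was lower with UC in MDA-MB-231 EVs (-2.31) and differed by 0.95 in PC3 EVs, where it was not called (adjusted p = 0.167). In PC3 it had 1711 and 1516 TPM with UC and 632 and 797 TPM with exoRNeasy. In those exoRNeasy libraries 1 read was worth 316 and 399 TPM. The lines differed by -3.26 (SE 0.660, adjusted p = 0.0122). The other 2 miRNA entries, mir-3190 and mir-19a, had 0 reads in all 4 PC3 libraries. Their PC3 difference was therefore 0 in the fit, and the difference between lines only repeats that of MDA-MB-231. For them this test says nothing on the methods in PC3. SNORD17 was lower with UC in MDA-MB-231 EVs, but in PC3 EVs it had 1358 and 1433 TPM with UC against 1011 and 824 TPM (0.61, not called there), and the lines differed by -2.89 (SE 0.552, adjusted p = 0.00668). SNORD116-8 had the largest contrast among the SNORD116 copies. In PC3 it stood at 1585 and 1242 TPM with UC and 393 and 471 TPM with exoRNeasy (1.68, called there), against the opposite order in MDA-MB-231, and the lines differed by -3.35 (SE 0.715, adjusted p = 0.0103). SNORD116 copies as a whole took 3.95% ± 0.675 of snoRNA TPM with UC and 1.36% ± 0.269 with exoRNeasy in PC3 (SD, n = 2 each), but 0.360% ± 0.253 and 0.766% ± 0.171 in MDA-MB-231. Without UC replicate 1 the number of snoRNA entries that differed between lines was 1.

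**Figure D5:**
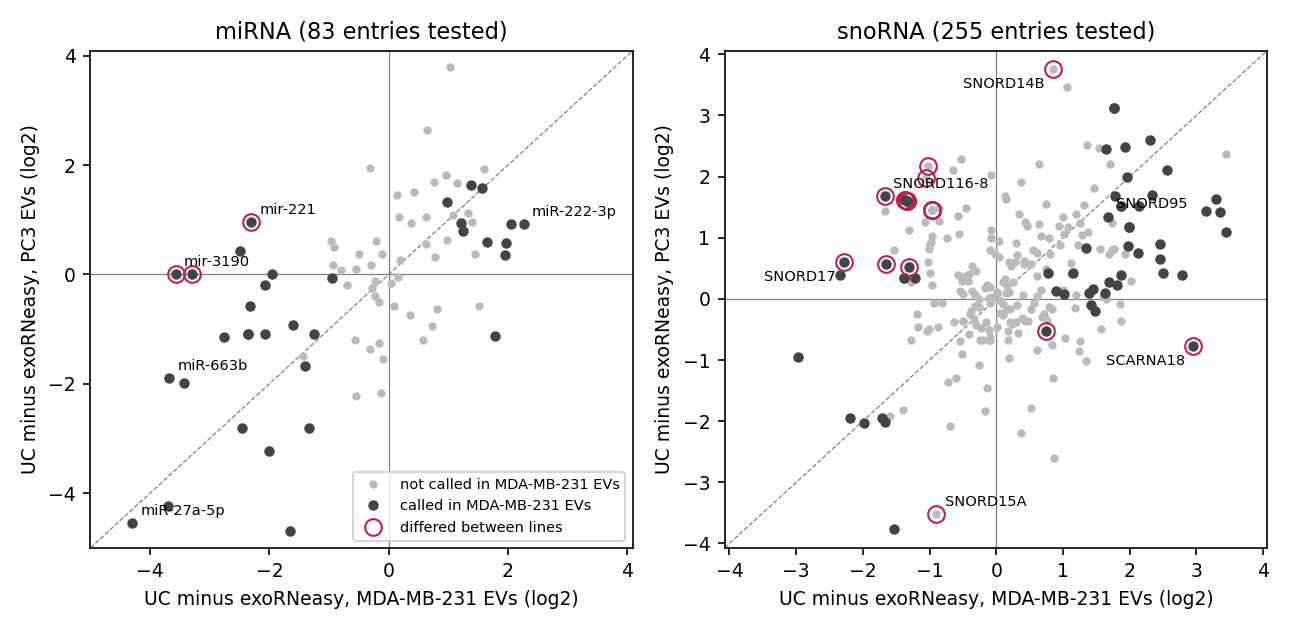
Log2 difference UC minus exoRNeasy in MDA-MB-231 EVs (x axis) and PC3 EVs (y axis) for 83 miRNA and 255 snoRNA entries. Dark points were called in MDA-MB-231 EVs, red rings mark the 3 miRNA and 19 snoRNA entries that differed between the lines and the dashed line marks equal differences, with miR-27a-5p close to it and SNORD17 and SNORD116-8 far above it.

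CircRNA values were dominated by a few entries that the files cannot tell apart. The 8 most abundant entries, hsa_circ_0040314 among them, had nearly equal values and together made up 90.5% and 88.3% of circRNA TPM with UC and 83.5% and 85.0% with exoRNeasy. hsa_circ_0040314 itself had 113092 and 110372 TPM against 104436 and 106291 TPM, a difference of 0.08 (adjusted p = 0.00481) that turned to -0.66 after centring, -1.39 with edgeR and -1.49 with DESeq2. Of 116577 entries 100844 had a read, and 47427 of these had exactly the values of another entry in all 16 libraries. With a filter of 1 TPM and log2(TPM + 1), 969 entries were tested, of which 549 (56.7%) were higher with UC and 133 (13.7%) with exoRNeasy, together 70.4%, at a median of 1.10. An unadjusted p under 0.05 was found for 73% of them, and both UC libraries were above both exoRNeasy libraries for 621 (64.1%). Under other scalings the median fell to -0.02 to 0.36 and the split became 271 and 271 after quantile normalization, 391 and 309 after centring, 281 and 342 with edgeR and 309 and 381 with DESeq2. The excess with UC was therefore not kept. Leaving out the 8 entries before scaling gave 641 and 35.

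The 969 tested circRNA entries formed 417 groups of nearly equal values, of which 237 were higher with UC and 59 with exoRNeasy. The largest difference with UC higher was that of hsa_circ_0139623, at 74.1 and 172 TPM against 4.22 and 2.39 TPM (4.76, SE 0.4, adjusted p = 1.77e-05), which was also called in PC3 EVs (3.65). The largest with exoRNeasy higher was that of hsa_circ_0045844, at 15.6 and 5.06 TPM against 103 and 45.8 TPM (-2.80, SE 0.567, adjusted p = 0.0026), and hsa_circ_0000146, of another group of values, had 18.3 and 8.57 TPM against 104 and 46.1 TPM (-2.37, SE 0.510, adjusted p = 0.00345). The groups did not overlap in any of these entries. Of the 682 called entries 579 had the same sign in PC3 EVs and 234 were also called there, and 140 entries (14.4%) differed between the lines. The median over all tested entries was positive in both lines (1.10 and 0.30 in PC3), which by itself favours equal signs.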

How the data were processed

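Small RNA was sequenced from libraries made with the NEBNext small RNA kit. Before deposit, the authors quality-trimmed the reads (Q20, 4-base window), retained lengths of 18 to 35 bases, used STAR for alignment to hg38 and COMPSRA for annotation, letting multimapping reads count, so entries of like sequence can share reads. Tool versions were not given in the sources used here. Deposited values are called TPM, but have the same sum in each library within an RNA class with no length term, which is a CPM. Whole reads were recovered for 100% of values in the 4 libraries (tolerance 0.1 read).

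The main test was limma 3.58.1 (trend and robust) in R 4.3.3 on log2(TPM + pseudocount), over 12 EV libraries with 6 group means, with Benjamini-Hochberg adjustment over all entries tested and a threshold of 0.05. Fold changes are on that scale, which understates low entries. Pseudocounts were 252, 12 and 1 TPM and filters 505, 24.1 and 1 TPM (mean of the 4 libraries) for miRNA, snoRNA and circRNA. edgeR 4.0.16 and DESeq2 1.42.0 on recovered reads, other scalings, filters and pseudocounts and leaving out each library were alternatives. On simulated miRNA data, 40 of 83 tested entries were set to change. Of 10 entries each changed 2-, 4-, 8- and 16-fold, 1, 6, 8 and 10 were recovered, and 1 of 26 calls was false. The simulation held no shift of scaling between the methods, so these figures do not cover one. Named entries were the 12 largest called differences per direction without overlap, the 10 most abundant per group and tested list members, with 8 dominant and up to 5 further circRNAs per direction, of which few are printed because identifiers had no names here. The members and the 26 lists were chosen with earlier results of these data known. Intervals cover counting error only. Hosts come from GENCODE 44, in which 75 of 93 called names matched 1 gene. Some items are not reported here.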

Additional observations from a re-analysis of the deposited data

Results flagged for a closer look

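The results below are those for which the difference between UC and exoRNeasy itself differed between MDA-MB-231 and PC3 EVs in the limma fit (log2 difference in MDA-MB-231 minus that in PC3). For miRNA these were mir-3190 (-3.573), mir-19a (-3.299) and mir-221 (-3.256), each at an adjusted p of 0.0122. mir-3190 and mir-19a had no read in the 4 PC3 libraries, so their values here only repeat the MDA-MB-231 difference. In MDA-MB-231 they rest on at most 16 reads per library.

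Among C/D box snoRNAs, SNORD17 differed by -2.893, SNORD3D by -2.221, SNORD104 by -1.824 and SNORD14B by -2.911, while SNORD6 differed by 1.265 and SNORD15A by 2.616. SNORD14B was 0.85 in MDA-MB-231 and 3.76 in PC3, so it pointed the same way in both, as did SNORD15A at -0.90 and -3.52. The SNORD116 copies shared 1 direction, at -3.345 for SNORD116-8, -3.2 for SNORD116-2, -2.985 for SNORD116-20, -2.979 for SNORD116-14, -2.949 for SNORD116-15, -2.937 for SNORD116-17 and SNORD116-19, and -2.416 for SNORD116-3, SNORD116-5, SNORD116-7 and SNORD116-9. They share sequence and are not separate measurements. SNORA58B differed by -3.033 (-1.06 in MDA-MB-231 and 1.97 in PC3) and SCARNA18 by 3.719. In circRNA, 140 entries differed between the lines. With UC replicate 1 left out, 1 snoRNA entry passed this test.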

How the results depend on the processing

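Against 34 miRNA calls, there were 13 with a pseudocount of 1 TPM, 18 with a filter 5 times higher (which tested 20 of the 34), 19 with all 16 libraries, 14 over mature names alone (which tested 19 of the 34) and 12 to 25 with 1 library left out, of which 12 to 24 were among the 34. The 59 snoRNA calls became 14 with the 4 libraries alone and 9 to 52 with 1 library left out. The 682 circRNA calls became 14299 with no filter, 349 with the higher filter, 389 with the 4 libraries alone, 294 with 1 entry per group of near-identical values (an alternative chosen after seeing the data) and 534 to 717 with 1 library left out.

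For differences between lines, the 3 miRNA calls became 1 with a pseudocount of 1 TPM, 8 with a pseudocount 4 times higher, 5 after quantile normalization, and 0 by limma with no filter or over mature names, and 0 to 5 with 1 library left out (18 at an unadjusted p under 0.05 with all libraries; edgeR and DESeq2 were not run for it). The 19 snoRNA calls became 10 with no filter and 1 to 28 with 1 library left out. The 140 circRNA calls became 4019 with no filter, 18 with the higher filter, 37 with all 16 libraries, 267 after centring, 68 without the 8 dominant entries, 70 per group of near-identical values and 79 to 520 with 1 library left out. The 4 libraries alone hold no PC3 library, so that fit was not run here.

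The labels number replicates within each group, but do not say that equal numbers share a culture or day, and there are only 2 pairs, too few to settle the pairing. The correlations of the replicate deviations between UC and exoRNeasy were 0.168, 0.429 and 0.485 for miRNA, snoRNA and circRNA, those between UC and next-gen ATPS 0.48, 0.568 and 0.742, and those between exoRNeasy and next-gen ATPS 0.0784, 0.473 and 0.756. Equal numbers thus deviated together in snoRNA and circRNA, a hint from the data and not from the design. With the replicate number as a block the calls were 31, 93 and 762, and those between lines 12, 44 and 432.

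The difference in detected miRNA entries (145) became -39.05 at equal reads, 104 with at least 3 reads and 110 to 180 with 1 library left out. For snoRNA it ran from 2 to 67 and for circRNA from 15204 to 35796. The difference in the share of the 10 most abundant entries (5.402 percentage points) became -4.393 over mature names and ran from 0.8667 to 10.8 with 1 library left out. Entries not called that changed sign were mir-21 (-0.0192 to 0.3608 with 1 library left out), SNORD2 (-0.5568 to 0.3483), SNORD30 (-0.623 to 0.1467), SNORD49A (-0.3949 to 0.6746, and -0.2466 after centring, -0.02515 with edgeR and -0.1298 with DESeq2), SNORD18A (-0.004142 after centring) and SNORD20 (-0.07927 after centring). The called hsa_circ_0040314 turned to -0.6558 after centring, -1.389 with edgeR and -1.49 with DESeq2. The causes were not tested. The 2 exoRNeasy miRNA libraries, at 4886 and 1982 reads, limit what can be seen of low miRNAs.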
